A study of Mus musculus with 6 samples.

Results

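Expression of Nrf2 targets and of the enzymes of glutathione metabolism was examined in mouse hearts carrying a conditional Txnip knock-in. The 41 genes were chosen by name, as Nrf2 itself, its inhibitor, known Nrf2 targets and enzymes that make, use or recycle glutathione. All 41 had counts, among 21066 identifiers with counts and 48005 identifiers in all.

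Nrf2, encoded by Nfe2l2, is a transcription factor that the adaptor protein Keap1 marks for degradation until oxidants or electrophiles modify Keap1. Stabilised Nrf2 pairs with small Maf proteins and binds antioxidant response elements in genes for glutathione synthesis, conjugation, NADPH supply and detoxification. Glutathione is the most abundant small thiol of the cell, and the heart, with its dense mitochondria, relies on glutathione peroxidases, catalase and superoxide dismutases to remove oxidants. Txnip, the gene that was edited, is an alpha-arrestin that binds thioredoxin, the other main thiol system.

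The knock-in group was 3 hearts with a conditional knock-in of Txnip in which PPXY motifs were changed to AAXA, and the control group 3 hearts labelled wild-type with Txnip flox. All 6 were from C57BL/6 mice, were labelled MerCreMer, a tamoxifen-inducible form of Cre recombinase, and had 4-hydroxytamoxifen treatment. The labels used here name neither the promoter of MerCreMer nor age, sex or date. The control hearts were stated to be shared with another series, and with no batch label, batch and genotype cannot be told apart. The hearts are numbered 1 to 3 in each group, and values of a group are given in that order.

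Txnip stood at 363, 751 and 670 CPM in knock-in hearts, against 887, 939 and 886 CPM in wild-type hearts, where CPM are counts scaled to a common library size. The log2 fold change was -0.60 ± 0.20 (SE) and did not pass the threshold (edgeR adjusted p = 0.0698). Library totals ran from 31989883 to 34016586 counts in knock-in hearts and from 30329004 to 30625093 in wild-type hearts. The coverage of long transcripts differed between the groups: over 1700 long genes, the median log2 ratio of counts in the last to the first of 3 equal parts of the exons was -0.09, -0.24 and -0.17 in knock-in hearts, against 0.69, 0.48 and 0.28 in wild-type hearts. Summed cardiomyocyte markers reached 86878 to 92875 CPM in knock-in hearts and 76381 to 81940 CPM in wild-type hearts, as fits the labelled tissue. In whole hearts, fewer cells of a type and less RNA per cell cannot be told apart.

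Values per gene were compared with edgeR over 13066 tested genes, and a gene was called at an adjusted p under 0.05. Of the 39 members tested, Nfe2l2, Me1 and Abcc1 were higher in knock-in hearts, and Gsta2, Gsta1 and Gpx1 were lower. That was 7.69% of members in each direction, against 6.74% of all tested genes higher and 4.09% lower (10.8% in either direction). Over all genes, 881 were higher and 534 lower, and with upper-quartile scaling 594 were higher and 734 lower. The 33 other tested members did not pass, and the median log2 fold change of the 39 was -0.02, against -0.004 over all tested genes. Values of the 2 groups did not overlap for 15 of the 39 members (38.5%), against 30.7% of all tested genes, so that neither share stood far from its background. Slc7a11, the cystine carrier, held 0, 0 and 0 counts in knock-in hearts against 1, 0 and 1 in wild-type hearts. Gstm3, a mu-class transferase, held 0, 0 and 0 counts in knock-in hearts against 0, 7 and 0 in wild-type hearts, and neither gene was tested.

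**Figure D1:**
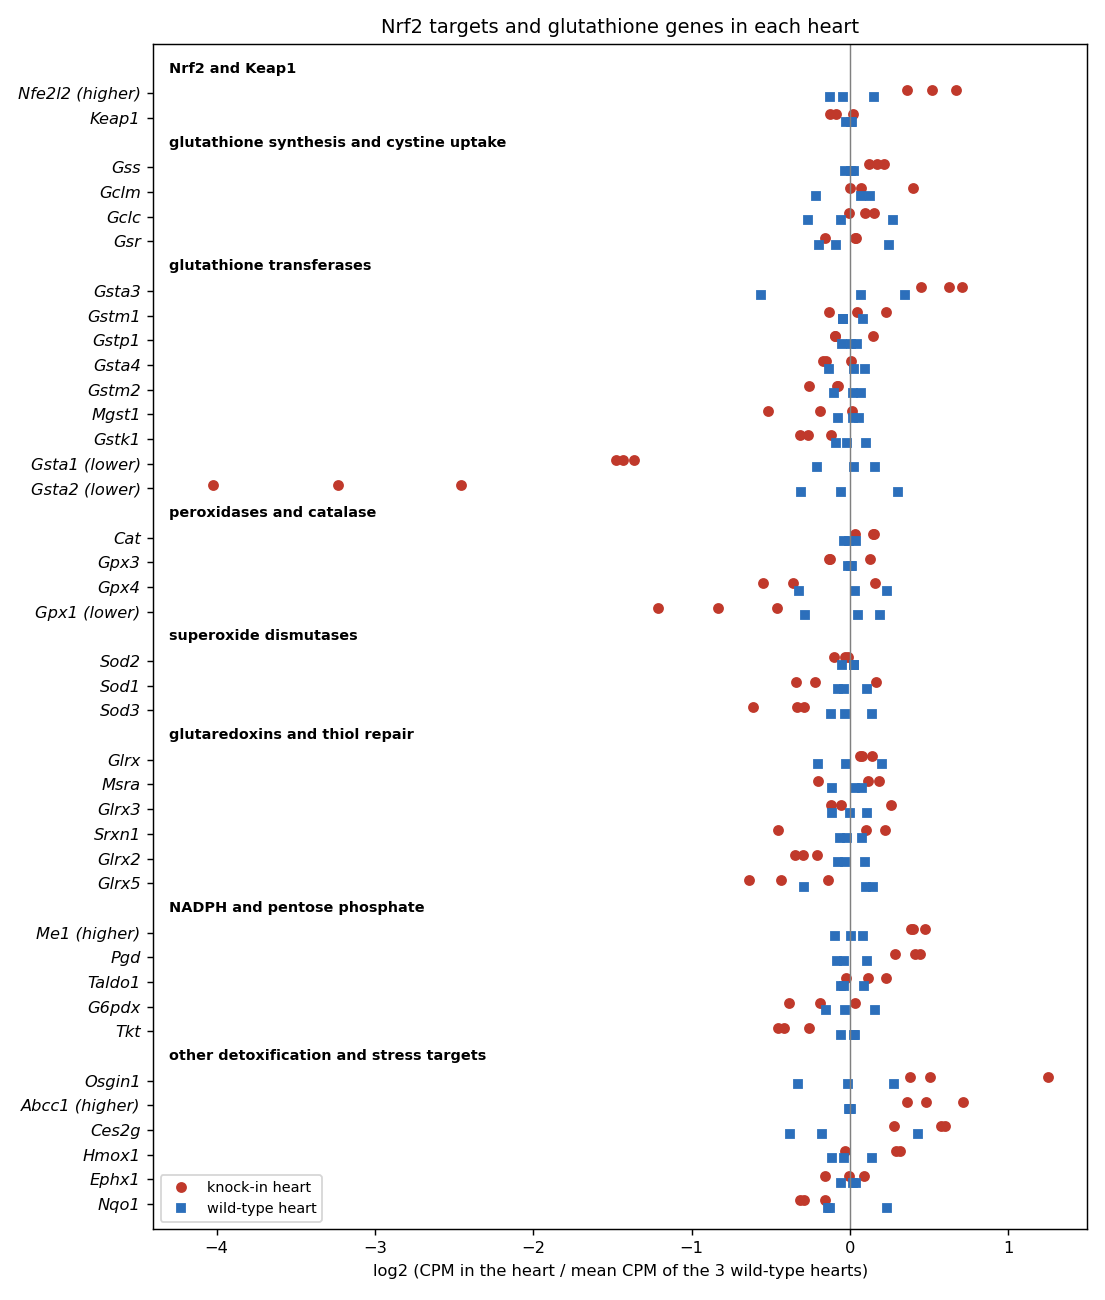
Each of the 39 tested members in each heart, as log2 of its CPM over the mean of the 3 wild-type hearts, with knock-in hearts as circles and wild-type hearts as squares. Gsta1 and Gsta2 lie far to the left in all 3 knock-in hearts, while most members scatter around 0.

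Nfe2l2 (ENSMUSG00000015839, chromosome 2, 75675513 to 75704641, reverse strand, GRCm38) encodes Nrf2. It reached 44.1, 49.3 and 54.5 CPM in knock-in hearts, against 31.5, 38.2 and 33.3 CPM in wild-type hearts. Every knock-in heart lay above every wild-type heart. The log2 fold change was 0.52 ± 0.13 (SE, edgeR adjusted p = 0.0248), or 1.44-fold higher. Bins of at least 50 bases and 30 counts, all 7 of them, had a log2 ratio above 0. It was lowest, at 0.23 and with overlapping groups, in a 1321-base noncoding bin of 38 counts. In the others it ran from 0.38 in exon 5 to 0.83 in the coding bin of exon 1, and there the groups did not overlap. It passed with bins of the 3' end only (0.62), but not without knock-in heart 2 (edgeR adjusted p = 0.105), knock-in heart 3 (0.104), wild-type heart 1 (0.133) or wild-type heart 2 (0.0655).

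Keap1, which holds Nrf2 for degradation, reached 51.3, 47.7 and 46.4 CPM in knock-in hearts, against 51.0, 51.3 and 49.9 CPM in wild-type hearts. The groups overlapped, with a log2 fold change of -0.06 ± 0.11 (SE, edgeR adjusted p = 0.740). Among 9 tested Nrf2 partners and regulators, 2 were higher and none lower by edgeR, against 6.74% and 4.09% of all tested genes. At an unadjusted p under 0.05 by edgeR, 5 were higher and 0 lower. By DESeq2 or limma-voom, 2 were higher and 0 lower. The median log2 fold change was 0.25. Nfe2l1, the Nrf2-related factor of proteasome genes, reached 418, 460 and 408 CPM in knock-in hearts, against 235, 245 and 293 CPM in wild-type hearts (log2 fold change 0.73 ± 0.11, SE, edgeR adjusted p = 0.00537). This call was lost with bins of the 3' end only (0.26, edgeR adjusted p = 0.231). Gsk3b, a kinase that marks Nrf2 for turnover, averaged 39.1 ± 4.02 CPM in knock-in hearts and 23.3 ± 6.54 CPM in wild-type hearts (SD, n = 3 each, edgeR adjusted p = 0.0222). Without knock-in heart 2 or 3, or wild-type heart 1 or 2, Gsk3b did not pass (edgeR adjusted p = 0.0782 to 0.117), nor did it with the highest bin of each gene (0.145). The small Maf gene Maff (0.56, edgeR adjusted p = 0.0799) and the repressor Bach1 (0.60, edgeR adjusted p = 0.105) did not pass.

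None of the 4 tested genes of glutathione synthesis and recycling passed with edgeR (0 also at an unadjusted p under 0.05, and 0 with DESeq2 or limma-voom), and their median log2 fold change was 0.12. Gclc, the catalytic subunit of the rate-limiting glutamate-cysteine ligase, stood at 11.2, 10.4 and 11.6 CPM in knock-in hearts, against 8.70, 10.05 and 12.6 CPM in wild-type hearts. The groups overlapped, and the log2 fold change was 0.08 ± 0.17 (SE, edgeR adjusted p = 0.796). Gclm, the modifier subunit, stood at 27.7, 29.1 and 36.5 CPM in knock-in hearts, against 23.9, 30.2 and 29.1 CPM in wild-type hearts. These groups overlapped too (0.17 ± 0.15, SE, edgeR adjusted p = 0.490). Gss, which adds glycine in the last step of synthesis, reached 22.2, 23.7 and 23.0 CPM in knock-in hearts, against 20.002, 20.6 and 20.8 CPM in wild-type hearts. All knock-in hearts lay above all wild-type hearts, but the difference of 0.17 did not pass (edgeR adjusted p = 0.401). Gsr, which reduces oxidised glutathione with NADPH, differed by -0.03 on the log2 scale.

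The largest decreases among members were in 2 alpha-class glutathione transferases, enzymes that join glutathione to electrophiles. Gsta2 (ENSMUSG00000057933, chromosome 9, 78331018 to 78355788, reverse strand) stood at 0.261, 0.152 and 0.0882 CPM in knock-in hearts, against 1.16, 1.38 and 1.77 CPM in wild-type hearts. These levels rest on 8, 5 and 3 counts in knock-in hearts, against 36, 43 and 55 counts in wild-type hearts. All knock-in hearts lay far below all wild-type hearts, at a log2 fold change of -3.09 ± 0.46 (SE, edgeR adjusted p = 0.00525), or 8.51-fold lower. Gsta1 (ENSMUSG00000074183, chromosome 9, 78230656 to 78242684, forward strand) stood at 0.783, 0.761 and 0.823 CPM in knock-in hearts, against 1.83, 2.37 and 2.15 CPM in wild-type hearts. The knock-in hearts lay close together and below all wild-type hearts. The log2 fold change was -1.42 ± 0.29 (SE, edgeR adjusted p = 0.0129), or 2.67-fold lower. Gsta1 did not pass without knock-in heart 2 (edgeR adjusted p = 0.0670) or wild-type heart 2 (0.0696), while Gsta2 passed in all 16 alternatives in which it was tested. However, Gsta2 met the filter on low counts only through the wild-type hearts. The alternatives reuse the same few counts and are not independent support.

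The 2 genes are near-copies, so reads can move between them in counting. Of 666 compared coding positions, 653 were identical (98.0%), and 89.7% of the 50-base windows of Gsta1 and 64.2% of those of Gsta2 also occur in other transcripts. The 30-base stretch below, coding bases 463 to 492, was picked because no other stretch within an exon held more differences. The 4 capitals are the positions that differ, and the rest is identical (GENCODE transcripts, GRCm38, each 5' to 3' on the gene's own strand). Gsta1 lies at chr9:78241575-78241604 on the forward strand, and Gsta2 at chr9:78332141-78332170 on the reverse strand.
Gsta1: agggtggacAtccacctActggaaGttctC
Gsta2: agggtggacGtccacctGctggaaCttctT
Because reads can move between these near-copies in counting, they were also summed with Gm3776 and Gm10639, a choice made after seeing the data. Their summed level was 1.83, 1.95 and 1.35 CPM in knock-in hearts, against 4.21, 5.69 and 5.27 CPM in wild-type hearts. The groups did not overlap, with a log2 fold change of -1.57 ± 0.24 (SE, edgeR adjusted p = 0.00524). Gm3776 alone differed by -0.85 and did not pass (edgeR adjusted p = 0.214). As background, alpha-class transferases are abundant in liver. The summed hepatocyte markers reached 0.235 to 0.456 CPM in knock-in hearts and 0.128 to 0.354 CPM in wild-type hearts, with Alb and Serpina1a at 0 counts in all 6 hearts. The part of liver RNA in the Gsta values was not tested.

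The other 7 tested transferases did not pass. Gsta3, an alpha-class member with no 50-base window shared with another transcript, stood at 6.23, 7.45 and 7.06 CPM in knock-in hearts, against 5.81, 4.80 and 3.09 CPM in wild-type hearts. All knock-in hearts lay above all wild-type hearts, yet the log2 fold change of 0.60 ± 0.23 did not pass (SE, edgeR adjusted p = 0.108). The abundant mu-class gene Gstm1 held 267, 303 and 236 CPM in knock-in hearts, against 274, 251 and 251 CPM in wild-type hearts. Its relative Gstm2 held 219, 219 and 193 CPM in knock-in hearts, against 235, 243 and 216 CPM in wild-type hearts. Both pairs of groups overlapped, with log2 fold changes of 0.05 and -0.14. Gstp1, the pi-class enzyme, held 128, 108 and 108 CPM in knock-in hearts, against 116, 119 and 111 CPM in wild-type hearts, and shares 62.3% of its windows with other transcripts, chiefly Gstp2. Its groups overlapped as well, at -0.01. Gsta4, which acts on lipid aldehydes, differed by -0.10, mitochondrial Gstk1 by -0.23 and membrane-bound Mgst1 by -0.21. Knock-in and wild-type hearts did not overlap for Gstk1 (edgeR adjusted p = 0.182), but did for Gsta4 and Mgst1.

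Gpx1 (ENSMUSG00000063856, chromosome 9, 108338903 to 108340343, forward strand), the main cytosolic glutathione peroxidase and a selenoprotein, was lower in knock-in hearts. It stood at 73.5, 56.8 and 43.5 CPM in knock-in hearts, against 105, 115 and 83.1 CPM in wild-type hearts. Every knock-in heart lay below every wild-type heart, at a log2 fold change of -0.80 ± 0.18 (SE, edgeR adjusted p = 0.0172). The difference was larger in the coding bins of exon 1 than in exon 2. A 104-base coding bin of exon 1 held 8.75, 4.47 and 3.18 CPM in knock-in hearts, against 13.4, 15.9 and 12.1 CPM in wild-type hearts, a log2 ratio of -1.33. The 448-base bin of exon 2 held 24.6, 21.1 and 17.6 CPM in knock-in hearts, against 32.5, 34.4 and 23.7 CPM in wild-type hearts. In that bin the groups overlapped, and the log2 ratio was -0.52. With bins of the 3' end only, Gpx1 did not pass (-0.50, edgeR adjusted p = 0.103), nor with its highest bin (-0.38, 0.175). It was also lost without knock-in heart 2 (0.0906) or 3 (0.0568), or wild-type heart 1 (0.0715) or 2 (0.0917).

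Of the other peroxidases, Gpx4, which reduces lipid hydroperoxides in membranes, was the most abundant member per length. It held 708, 494 and 434 CPM per kilobase in knock-in hearts, against 650, 748 and 508 CPM per kilobase in wild-type hearts. The groups overlapped widely, and the log2 fold change was -0.22 ± 0.18 (SE, edgeR adjusted p = 0.448). Without knock-in heart 1, the highest of the 6 but for wild-type heart 2, it passed at -0.47 (edgeR adjusted p = 0.0412). Of its windows, 61.7% occur in other transcripts, chiefly Gpx4-ps2. Gpx3, the secreted form, differed by -0.04. Catalase, encoded by Cat, held 289, 290 and 267 CPM in knock-in hearts, against 260, 255 and 268 CPM in wild-type hearts. Knock-in heart 3 lay just under the highest wild-type value, and the difference of 0.11 did not pass (edgeR adjusted p = 0.495).

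None of the 3 superoxide dismutases passed with edgeR, DESeq2 or limma-voom (0 higher and 1 lower at an unadjusted p under 0.05). Cytosolic Sod1, second per length, held 413, 317 and 291 CPM per kilobase in knock-in hearts, against 398, 350 and 360 CPM per kilobase in wild-type hearts, and the groups overlapped. Secreted Sod3 held 10.4, 13.1 and 12.7 CPM in knock-in hearts, against 17.6, 14.7 and 15.6 CPM in wild-type hearts. Its groups did not overlap, but -0.41 did not pass (edgeR adjusted p = 0.105). Sod3 is made largely by vessel walls. Of 8 smooth muscle and pericyte markers, 3 were lower, against 4.09% of all tested genes. The markers summed to 284 to 511 CPM in knock-in hearts and 505 to 546 CPM in wild-type hearts. Their part in the Sod3 values was not tested. Mitochondrial Sod2 held 469, 476 and 448 CPM in knock-in hearts, against 489, 463 and 489 CPM in wild-type hearts, at -0.05 and with overlap.

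Beneath the level total, Sod2 exons differed in opposite directions, a pattern chosen after its values were seen. Exon 1 (230 bases) held 18.4, 10.4 and 6.76 CPM in knock-in hearts, against 35.8, 34.9 and 31.7 CPM in wild-type hearts. Each knock-in heart lay well below each wild-type heart, at a log2 ratio of -1.52. The ratio was -0.33 in exon 2, -0.05 in exon 3, 0.04 in exon 4 and 0.21 in the 3094-base bin of exon 5. The exon 1 bin of Sod2 had 68.3% GC, and the 104-base bin of Gpx1 74.0% GC. The coding exon 1 bin of Nfe2l2 had 65.1% GC and a ratio of 0.83. Over 190 member bins of at least 50 bases and 300 counts, the Spearman correlation of GC content with the log2 ratio was -0.02. The Pearson correlation was -0.12. Among these, 11 first-exon bins of at least 60% GC had a median log2 ratio of 0.08, with 7 above 0 and 4 below. The part of GC content in the Sod2, Gpx1 and Nfe2l2 values was not tested beyond this.

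**Figure D2:**
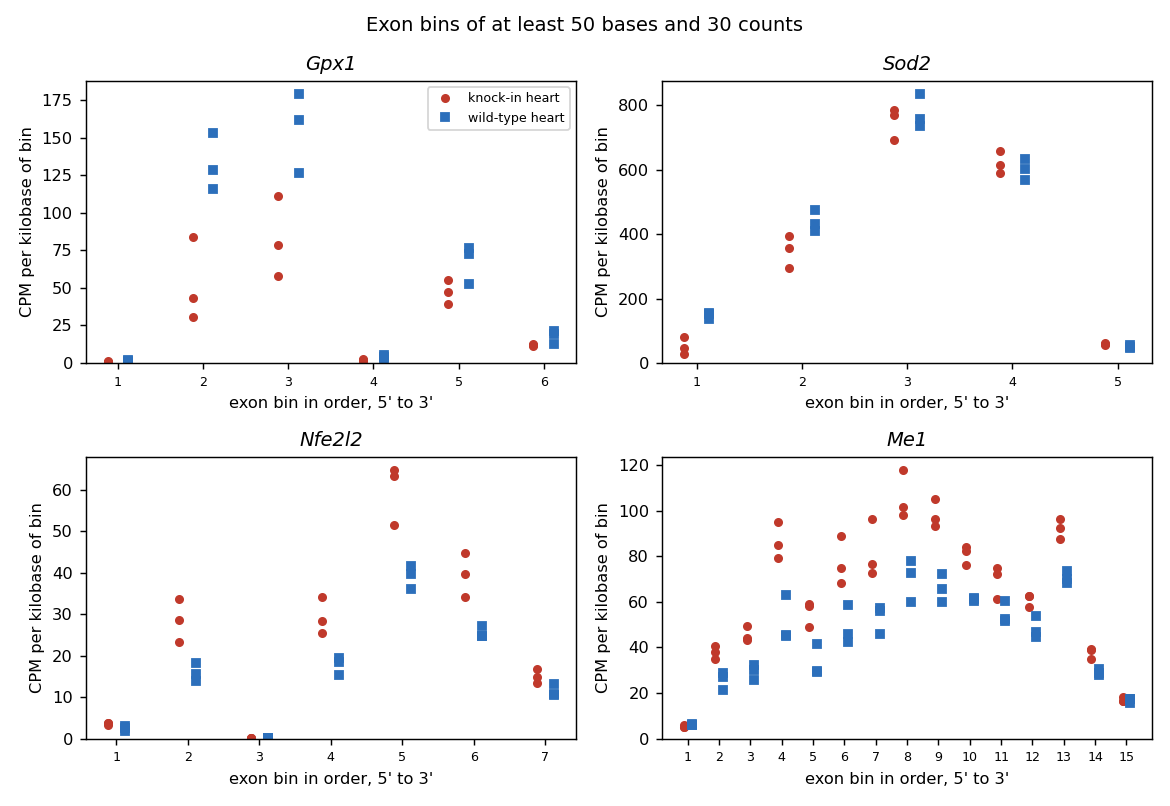
CPM per kilobase in each exon bin of at least 50 bases and 30 counts, from 5' to 3', for Gpx1, Sod2, Nfe2l2 and Me1, with knock-in hearts as circles and wild-type hearts as squares. Gpx1 and Sod2 are lower in knock-in hearts near the 5' end, the mean of Nfe2l2 is higher in all 7 bins, with overlap in the third, and Me1 overlaps in its first and last bins and is higher between them.

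NADPH feeds glutathione reductase and thioredoxin reductase. Me1 (ENSMUSG00000032418, chromosome 9, 86581371 to 86695953, reverse strand), the cytosolic malic enzyme that yields NADPH, stood at 135, 142 and 133 CPM in knock-in hearts, against 95.6, 103 and 108 CPM in wild-type hearts. All knock-in hearts lay above all wild-type hearts, at a log2 fold change of 0.42 ± 0.10 (SE, edgeR adjusted p = 0.0248). The difference was uneven along the transcript: of 15 bins 14 had a log2 ratio above 0, up to 0.75 in the coding part. The most 5' bin, 281 bases with the start of the coding part, was at -0.16, on 51, 49 and 50 counts in knock-in hearts against 51, 54 and 56 in wild-type hearts. The ratio was 0.04 in the 1280-base bin of the 3' untranslated region. That bin held 23.5, 21.2 and 21.3 CPM in knock-in hearts, against 22.0, 20.03 and 22.1 CPM in wild-type hearts. Me1 did not pass with bins of the 3' end only (0.28, edgeR adjusted p = 0.192), with its highest bin (0.18, 0.403) or with upper-quartile scaling (0.35, 0.0521). Nor did it pass without knock-in heart 2 or 3, or wild-type heart 1 or 2 (0.0703 to 0.143). Of its windows, 26.5% are shared, chiefly with Gm7049.

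The 4 pentose phosphate genes did not pass. Pgd, which makes NADPH in the oxidative branch, held 45.9, 46.9 and 42.0 CPM in knock-in hearts, against 32.7, 33.6 and 37.3 CPM in wild-type hearts. The groups did not overlap, and 0.38 ± 0.12 did not pass (SE, edgeR adjusted p = 0.0538). It passed with DESeq2 (0.38, adjusted p = 0.0362), and with its highest bin was -0.01. Tkt, the transketolase of the non-oxidative branch, held 16.8, 18.7 and 16.4 CPM in knock-in hearts, against 22.8, 22.9 and 21.5 CPM in wild-type hearts. Its knock-in hearts all lay below the wild-type hearts, and -0.37 ± 0.13 did not pass (SE, edgeR adjusted p = 0.0822). G6pdx, the entry enzyme of the pathway, differed by -0.17 and Taldo1, the transaldolase, by 0.11. Of 13 further NADPH genes tested, 1 was higher and 1 lower, against 6.74% and 4.09% of all tested genes. Nadk2, the mitochondrial NAD kinase, averaged 88.5 ± 4.83 CPM in knock-in hearts and 57.4 ± 7.31 CPM in wild-type hearts (SD, n = 3 each, edgeR adjusted p = 0.00984). It did not pass with bins of the 3' end only (0.14, edgeR adjusted p = 0.891), with the highest bin (0.47, 0.135), or in 3 of the 6 fits that left out a heart. Aldh1l1, a folate enzyme that yields NADPH, whose identifier is joined with an overlapping gene, averaged 9.68 ± 0.967 CPM in knock-in hearts and 14.0 ± 0.914 CPM in wild-type hearts (SD, n = 3 each, edgeR adjusted p = 0.0409), and was lost in 4 of those 6 and with the highest bin.

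Among other detoxification genes, Abcc1 (ENSMUSG00000023088, chromosome 16, 14361558 to 14475737, forward strand), which exports glutathione conjugates, was higher in knock-in hearts. It stood at 28.3, 36.2 and 30.8 CPM in knock-in hearts, against 22.1, 22.0 and 22.2 CPM in wild-type hearts. The wild-type hearts were nearly equal and all below the knock-in hearts, at a log2 fold change of 0.53 ± 0.13 (SE, edgeR adjusted p = 0.0258). Of 35 bins, 31 had a log2 ratio above 0. Split at the middle of the exonic length, the median was 1.15 over the 18 bins of the 5' side, all above 0, and 0.38 over the 17 bins of the 3' side, 13 of them above 0. The lowest ratio was -0.42, in the 1695-base bin of exon 31. That bin held 2.61, 2.16 and 1.76 CPM in knock-in hearts, against 3.53, 2.91 and 2.32 CPM in wild-type hearts, with overlap. With bins of the 3' end only, the direction turned (-0.18, edgeR adjusted p = 0.696), as it did with the highest bin (-0.28, 0.465). With offsets for length and GC it was 0.34 (0.0557), and without knock-in heart 2 or 3, or wild-type heart 1 or 2, it did not pass (0.0702 to 0.146).

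Nqo1, a quinone reductase often read as the marker of Nrf2 activity, stood at 51.7, 46.4 and 47.2 CPM in knock-in hearts, against 52.8, 67.9 and 52.3 CPM in wild-type hearts. Knock-in hearts all lay below wild-type hearts by a small margin, and -0.25 ± 0.13 did not pass (SE, edgeR adjusted p = 0.223). Hmox1, the inducible heme oxygenase, stood at 7.70, 9.61 and 9.82 CPM in knock-in hearts, against 8.67, 7.26 and 7.68 CPM in wild-type hearts. Those groups overlapped (0.20 ± 0.17, SE, edgeR adjusted p = 0.474). Osgin1, an oxidative stress-induced growth inhibitor, stood at 3.62, 6.63 and 3.94 CPM in knock-in hearts, against 2.22, 2.75 and 3.38 CPM in wild-type hearts. Knock-in heart 2 was far above the rest, and the groups did not overlap. The log2 fold change of 0.77 ± 0.27 did not pass (SE, edgeR adjusted p = 0.0865), but it passed in 6 alternatives, among them bins of the 3' end only (1.11, edgeR adjusted p = 0.0401). The carboxylesterase gene Ces2g differed by 0.49 and the epoxide hydrolase gene Ephx1 by -0.02, and neither passed.

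The 6 glutaredoxin and thiol repair genes did not pass with edgeR, DESeq2 or limma-voom (0 higher and 2 lower at an unadjusted p under 0.05), and their median log2 fold change was 0.01. Glrx5, which serves mitochondrial iron-sulfur cluster assembly, differed by -0.39 (edgeR adjusted p = 0.132) and mitochondrial Glrx2 by -0.28 (edgeR adjusted p = 0.173). Knock-in and wild-type hearts overlapped for Glrx5 but not for Glrx2. The values were 0.09 for Glrx, 0.04 for Glrx3, 0.04 for the methionine sulfoxide reductase Msra and -0.02 for Srxn1, which repairs peroxiredoxins.

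**Figure D3:**
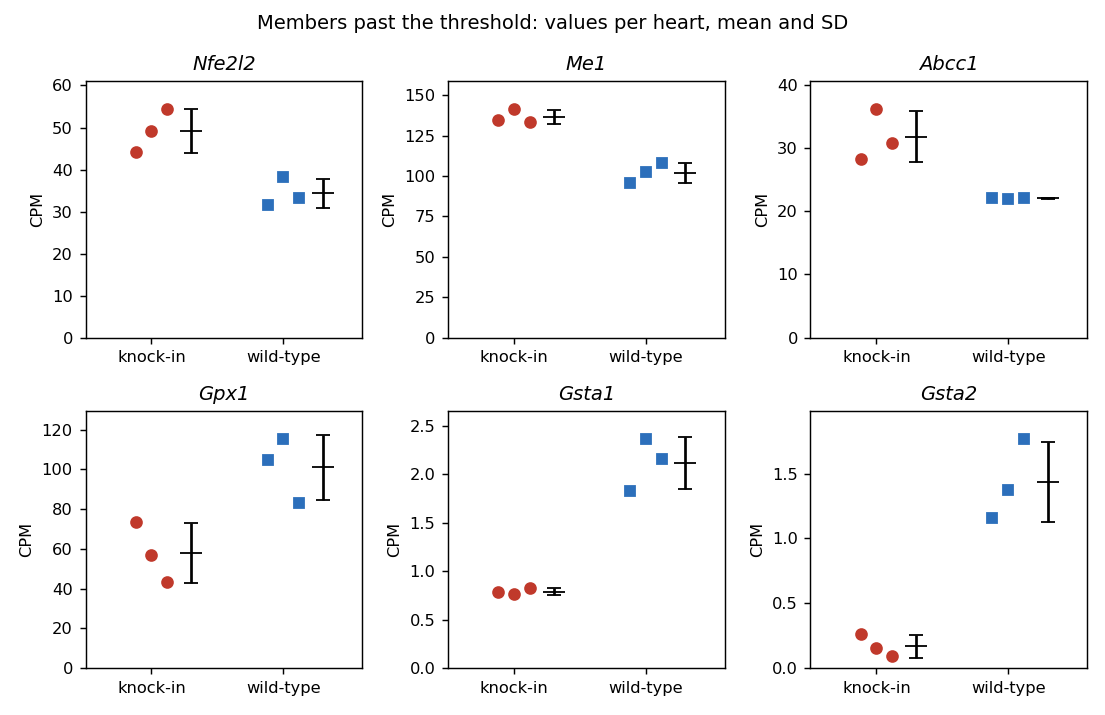
CPM of the 6 members past the threshold in each heart, with knock-in hearts left of wild-type hearts and bars for the mean and SD (n = 3 each). The groups do not overlap in any panel, and Gsta1 and Gsta2 stay under 3 CPM in all 6 hearts.

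Genes of the same pathways outside the 41 were counted as well, beside shares of 6.74% higher and 4.09% lower over all tested genes. Of 19 further Nrf2 targets tested, 1 was lower and none higher with edgeR, with a median log2 fold change of -0.20. At an unadjusted p under 0.05 by edgeR, 2 were higher and 6 lower. With DESeq2, 1 was higher and 1 lower, and with limma-voom 0 were higher and 1 lower. The gene called by edgeR was Cbr1, a carbonyl reductase, at 11.5 ± 2.40 CPM in knock-in hearts and 18.6 ± 2.02 CPM in wild-type hearts (SD, n = 3 each, edgeR adjusted p = 0.0245). The thioredoxin genes that share the Nrf2 program did not pass: Txnrd1 differed by 0.15 (edgeR adjusted p = 0.491) and Prdx1 by -0.25 (edgeR adjusted p = 0.117). Of 24 further glutathione genes tested, 1 was lower and none higher with edgeR. At an unadjusted p under 0.05 by edgeR, 1 was higher and 3 lower. With DESeq2, 0 were higher and 2 lower, and with limma-voom 0 were higher and 1 lower. The gene called by edgeR was Hagh, a hydrolase of the glyoxalase pathway, at 112 ± 18.5 CPM in knock-in hearts and 165 ± 9.93 CPM in wild-type hearts (SD, n = 3 each, edgeR adjusted p = 0.0193). Cbr1 and Hagh did not pass with bins of the 3' end only, with the highest bin, or in 4 of the 6 fits that left out a heart. Of 16 oxidant and methionine sulfoxide repair genes tested, 3 were higher and none lower with edgeR (0 lower at an unadjusted p under 0.05, and 0 with DESeq2 or limma-voom). Sesn1, a sestrin, averaged 196 ± 15.7 CPM in knock-in hearts and 126 ± 13.9 CPM in wild-type hearts (SD, n = 3 each, edgeR adjusted p = 0.00814), and passed with bins of the 3' end only (0.58, edgeR adjusted p = 0.0169). It did not pass without knock-in heart 2 (0.0639) or wild-type heart 1 (0.0633). Sesn3 (0.81, edgeR adjusted p = 0.0223) and Msrb3 (0.45, edgeR adjusted p = 0.0331) were lost in 4 of the fits that left out a heart, and Msrb3 also with upper-quartile scaling and with the highest bin.

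Nrf2 binds antioxidant response elements, whose core TGACNNNGC was searched on both strands of RefSeq promoters (GRCm38.p6, 250 bases before to 50 after a gene's start). Of 41 members, 34 were in the promoter table, with 45 promoters. The core occurred in 9 of the 45 (20%), against 4071 of 32851 promoters (12.4%). The windows of 29 bases below are shown for the 2 called members with a match and for Pgd, Gsta3 and Gclm, with the match in capitals on its own strand, 5' to 3'. They are Me1 at chr9:86695902-86695930, Nfe2l2 at chr2:75704885-75704913, Pgd at chr4:149166061-149166089 and Gclm at chr3:122245413-122245441 on the reverse strand, and Gsta3 at chr1:21240454-21240482 on the forward strand.
Me1: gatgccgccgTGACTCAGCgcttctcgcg
Nfe2l2: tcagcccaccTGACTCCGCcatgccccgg
Pgd: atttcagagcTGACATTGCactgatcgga
Gsta3: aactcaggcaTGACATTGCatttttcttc
Gclm: tcgtgagagtTGACGGTGCgcccgggagc
The match in Me1 lies 6 bases before the start and that in Nfe2l2 240 bases before. G6pdx, Mgst1, Sod1 and Srxn1 held the others. The 9 tested members with a match had a median log2 fold change of 0.17, with 2 higher and 0 lower. The 23 tested members with a promoter but no match had -0.05, with 0 higher and 3 lower. Over all tested genes, 6.74% were higher and 4.09% lower. Abcc1, the other higher member, had no promoter here and is in neither group of members, so the calls are not fully split by the match. A relation between match and calls was not tested, and elements outside the searched window were not sought. With an A required after the core, 2 of the 45 member promoters matched (4.44%), against 999 of 32851 (3.04%). Those were in Pgd and Gsta3, and the matches of Me1 and Nfe2l2 lacked that A. A match in this window is a description and not a bound site.

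Over all genes, the direction of the calls went with exonic length. The 3 lower members were short, while of the 3 higher members only Abcc1 was among the longest genes. The tested genes were split into 5 equal classes by length. In the shortest class (57 to 2223 exonic bases), 29 genes were higher and 207 lower, with a median log2 fold change of -0.19. That class held 18 members, among them Gpx1, Gsta1 and Gsta2, with a median of -0.13. In the longest class (7290 to 123180 bases), 387 genes were higher and 50 lower, with a median of 0.20, and Abcc1 and Glrx2 were its members. Nfe2l2 and Me1 lay in the middle class, where 158 genes were higher and 93 lower and the median was 0.01. With offsets for length and GC, 3 members were higher and 5 lower, as Osgin1, Glrx2 (-0.48) and Tkt (-0.42) passed while Abcc1 did not. In that fit more genes passed in all, at 1838 of 13066 in either direction, against 1415 without the offsets.

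**Figure D4:**
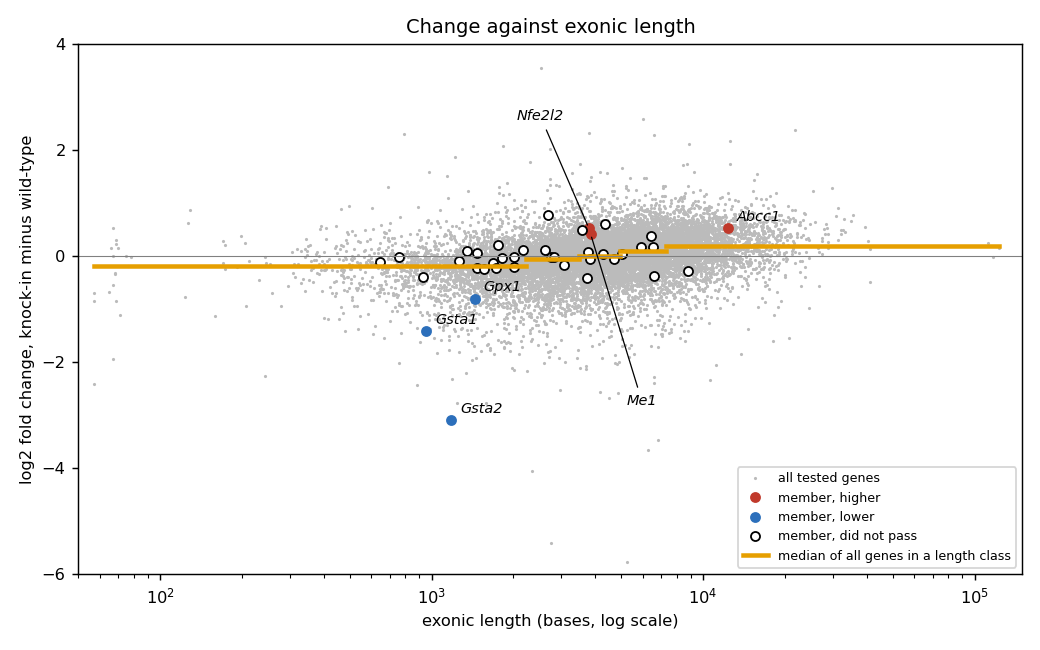
Log2 fold change, knock-in minus wild-type, against exonic length on a log axis, for all tested genes (grey) and members, with a bar for the median of each length class. The 3 lower members are short, and the medians climb from -0.19 in the shortest class to 0.20 in the longest.

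Within the members, coverage shifted in the same direction as in long genes. Of 30 members with at least 200 counts in each outer part of the exons, 26 had a lower ratio of last to first part in knock-in hearts, with a median difference of -0.31 on the log2 scale. The largest drop was in Abcc1, with ratios of 0.84, 0.24 and 0.47 in knock-in hearts, against 1.99, 1.45 and 1.69 in wild-type hearts. Gclm, Glrx2, Gpx1 and Sod1 went the other way, and Gpx1 stood at 0.95, 1.73 and 2.05 in knock-in hearts, against 0.67, 0.53 and 0.20 in wild-type hearts. Along 1 annotated transcript per member, the bins of at least 50 bases and 300 counts were also compared. In 47 last-exon bins, the median log2 ratio was -0.15 and 40 were below 0. In 122 inner-exon bins the median was 0.08 and 76 were above 0. The 21 exon 1 bins also had a median of 0.08, with 15 above 0. With bins of the 3' end only, 277 of 8287 genes passed (3.34%), and of 34 members tested Nfe2l2 and Osgin1 were higher and Gsta1 and Gsta2 lower. The part of coverage in the calls of Me1, Abcc1 and Gpx1 was not tested beyond these values.

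**Figure D5:**
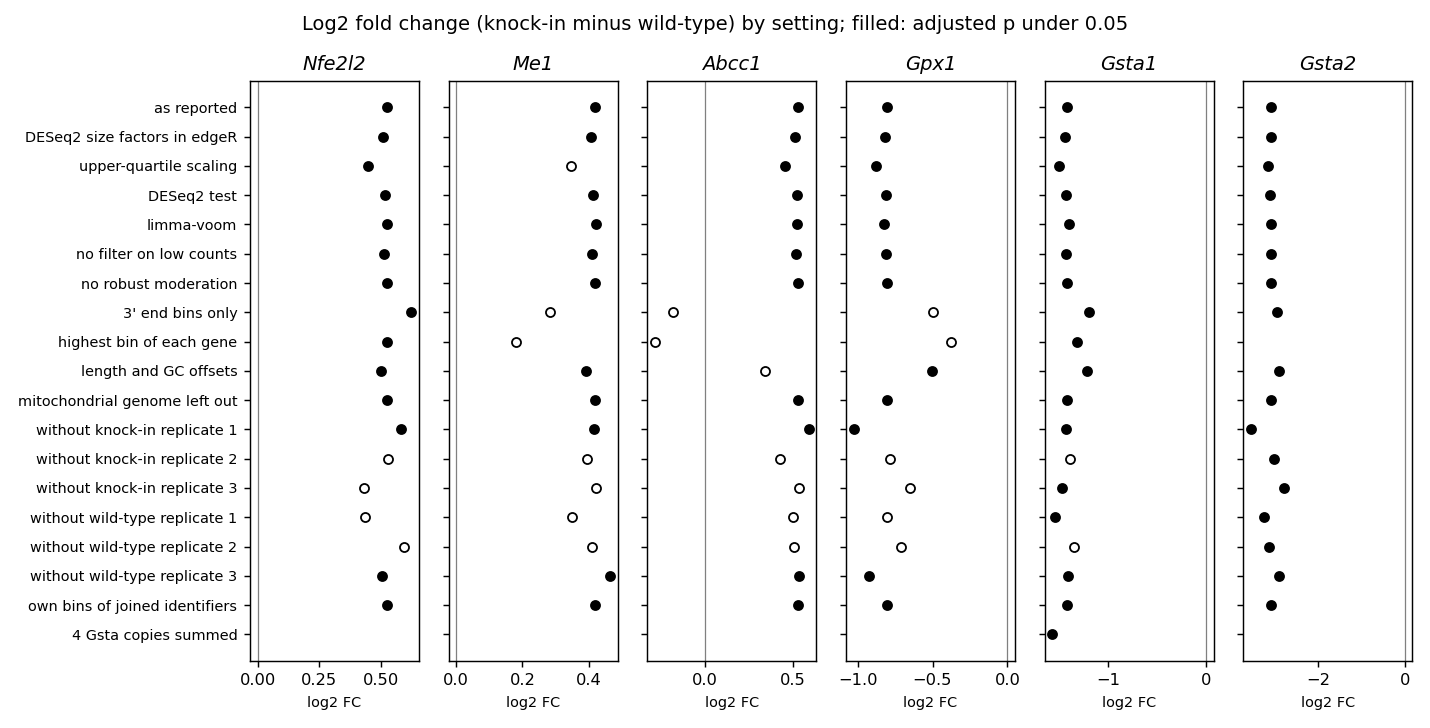
Log2 fold change, knock-in minus wild-type, of the 6 called members as reported and under each alternative, filled where the adjusted p was under 0.05. Gsta2 is filled wherever it was tested, and Abcc1 crosses 0 with bins of the 3' end and with the highest bin.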

How the data were processed

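The authors deposited whole-number counts of reads per exon bin for 6 heart libraries, without normalization. Per the submitters' processing notes, STAR, featureCounts, Subread 1.5.2, DESeq2 and GRCm38.p6 were used. Their settings are not stated there. RNA was column-purified and libraries made with a NEBNext Ultra II kit, per the labels' protocols. All sample columns were used, and pairs of replicates had a chi-square over its degrees of freedom of 15.4 to 43.2. Reads counted in several bins also raise this value, so it does not measure the spread beyond counting error alone.

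The 425461 bins were summed per gene identifier. A read that spans several bins is counted in each, so sums are not numbers of reads. Identifiers joining overlapping genes took the name of their single coding gene (Gclm, Tkt and Ephx1 among members). Genes passing filterByExpr (13066) received TMM scaling and the quasi-likelihood test of edgeR 4.0.16 in R 4.3.3 (glmQLFit with robust moderation, glmQLFTest, Benjamini-Hochberg adjustment, threshold 0.05). Each SE is the absolute log2 fold change over the square root of F. Alternatives were other scalings, DESeq2 1.42.0, limma-voom (limma 3.58.1), no filter, no robust moderation, 3' end bins (those centred in the final 1000 bases of a gene's exons), the highest bin, spline offsets for length and GC, no mitochondrial genes, and each heart left out. The series states 3 hearts per group, and the labels do not name the animals, so p-values measure the spread between these samples. Log2 ratios of single bins compare mean CPM with 0.01 CPM added.

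The members, lists and tests were chosen with earlier results of these data known. Values per heart were given for members past the threshold, for Nfe2l2, Keap1, Nqo1, Hmox1, Gclc and Gclm, and for the 5 highest per kilobase, and for some others chosen after their values were seen. From each further list, up to 4 genes past the threshold were named, and others were chosen after their values were seen. Besides the lists in the text, marker genes called were Cldn5 and Emcn of 7 endothelial (lower), Col3a1 of 8 fibroblast (lower), Lyz2 of 8 macrophage (lower), Hbb-bs of 5 red cell (higher) and 3 of 4 platelet genes (lower). The shares over all tested genes were 6.74% higher and 4.09% lower. None of 7 cardiomyocyte or 4 neutrophil genes was called by edgeR (2 and 0 at an unadjusted p under 0.05, 1 and 0 with DESeq2, 2 and 0 with limma-voom), and no adipocyte gene was tested. Counting error alone understates the spread, since PCR copies are not separate molecules. No protein sequence was used here.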

Additional observations from a re-analysis of the deposited data

How the results depend on the processing

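No paired analysis was possible because the labels give the groups no shared replicate numbers. Over 657 refits of member fold changes, 569 kept their direction and side of the threshold, 24 lost their call, 14 gained one and 50 turned direction; Abcc1 was the only called member to turn. Members higher numbered 3 and, leaving out a heart, 0 to 5 (edgeR; at the 4 hearts with 0, 4 to 7 were higher at an unadjusted p under 0.05 and 0 to 2 with DESeq2). Members lower numbered 3, against 1 with the highest bin, 5 with length and GC offsets and 1 to 5 leaving out a heart. All genes called in either direction numbered 1415, against 1838 with length and GC offsets. All genes higher numbered 881, against 130 with 3' end bins, 377 with the highest bin and 105 to 1544 leaving out a heart. All genes lower numbered 534, against 877 without a filter, 147 with 3' end bins, 230 with the highest bin and 59 to 917 leaving out a heart. Fits with 3' end bins or the highest bin tested fewer genes. Other causes were not tested. Without knock-in heart 1, 4 members were higher and 5 lower. Log2 fold changes that turned with 3' end bins were Abcc1 -0.18, Cat -0.0022, Ephx1 0.17, Gclc -0.15, Gpx3 0.11, Gpx4 0.0029, Gsr 0.13, Gsta4 0.14, Gstm2 0.0224, Gstp1 0.22, Keap1 0.0284 and Sod1 0.12. With the highest bin they were Abcc1 -0.28, Cat -0.21, Gclc -0.24, Gsr 0.0341, Gsta4 0.0543, Gstp1 0.23, Pgd -0.0108, Sod1 0.025, Sod2 0.34 and Srxn1 0.0684. With length and GC offsets they were Ephx1 0.16, Glrx3 -0.0264, Gpx3 0.20, Gpx4 0.15, Gsr 0.0456, Gsta4 0.10, Gstm2 0.0529, Gstp1 0.31, Keap1 0.0479, Sod1 0.10 and Srxn1 0.10, and with upper-quartile scaling Glrx3 -0.0344, Gstm1 -0.0209 and Msra -0.0329. Leaving out a heart, ranges that crossed 0 were Ephx1 -0.0757 to 0.0257, Gclc -0.0602 to 0.24, Glrx3 -0.10 to 0.11, Gpx3 -0.15 to 0.0047, Gsr -0.13 to 0.11, Gstm1 -0.0391 to 0.12, Gstp1 -0.11 to 0.0333, Msra -0.0324 to 0.13 and Srxn1 -0.17 to 0.16. Counting only own bins of Gclm, Tkt and Ephx1, chosen after seeing the data, changed no member call. The low counts of Gsta2, Slc7a11 and Gstm3 limit what depth can show for them.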
